A study of Caenorhabditis elegans with 2 samples.

Results

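Strong intron peaks are the peaks of the pooled list of the tagged F57A8.1 protein that ranked 1 to 3000 by the authors' signal value and whose summit lay in an intron on one of the 5 autosomes. A summit had to lie inside the span of a protein-coding gene, in no protein-coding exon, over 500 bp from every protein-coding 5′ end and over 250 bp from every tRNA, snRNA, snoRNA, miRNA, rRNA and spliced-leader gene. The rule found 305 peaks among the 3000 highest and among 30000 in all. The other high peaks comprised 402 at short RNA genes of any chromosome and 562 on the X chromosome away from such genes. On the autosomes there were 723 at promoters, 568 in coding exons, 80 in untranslated exons and 360 between genes. A further 4031 peaks met the same location rule below rank 3000 and are called the lower intron peaks. All bases that meet the location rule, whether or not a peak lies there, add up to 21.8 Mb and are called the eligible intron sequence.

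The peaks come from chromatin immunoprecipitation and sequencing (ChIP-seq) of whole Caenorhabditis elegans of strain OP757, in 2 biological replicates of 1 group. The strain carries the unc-119(tm4063) mutation and the transgene wgls757, which brings F57A8.1::TY1::EGFP::3xFLAG together with unc-119(+), so the tagged protein was precipitated through GFP. Animals were of mixed sex, were synchronized by starving L1 larvae after bleaching, and were collected as young adults at 65 hours. No second genotype, stage or antibody was compared, and whole animals mix all tissues, so a peak in a few cells and a weak one in many cannot be told apart.

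RefSeq names the product of F57A8.1 as Protein TSSC4, and human TSSC4 is known as a factor in the assembly of spliceosomal RNA-protein complexes. Worm introns are mostly short, while the long ones can hold enhancers, promoters of shorter transcripts and small non-coding RNA genes. A tRNA gene carries its promoter inside the transcribed sequence, as an A box and a B box that RNA polymerase III factors read. RNase P RNA, the catalytic part of the enzyme that trims tRNA precursors, is also made by RNA polymerase III.

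A few kinds of sequence recurred among the members and are shown here because the values below refer back to them. All were read from the RefSeq genome sequence of WBcel235 (ce11). The first set gives 5 of the 7 member peaks that hold letters of a tRNA promoter, TNGCNNAG for the A box and GTTCNANNC for the B box, on the same strand with 28 to 70 bases between their first letters. Capitals mark the letters of both boxes, and each line runs 5′ to 3′ on the strand that carries them.
lips-10, chrII:8441624-8441774, minus strand: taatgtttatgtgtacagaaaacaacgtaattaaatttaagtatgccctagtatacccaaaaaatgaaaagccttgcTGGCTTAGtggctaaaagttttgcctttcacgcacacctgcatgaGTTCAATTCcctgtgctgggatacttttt
unc-104, chrII:7001609-7001759, plus strand: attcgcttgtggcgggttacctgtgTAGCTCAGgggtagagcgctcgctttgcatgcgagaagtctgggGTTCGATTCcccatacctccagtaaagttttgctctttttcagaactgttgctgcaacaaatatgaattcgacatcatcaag
srt-52, chrV:53451-53601, plus strand: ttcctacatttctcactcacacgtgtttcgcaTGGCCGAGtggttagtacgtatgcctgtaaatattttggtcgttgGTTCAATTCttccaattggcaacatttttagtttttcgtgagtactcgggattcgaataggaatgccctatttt
Y69A2AR.31, chrIV:2658956-2659106, minus strand: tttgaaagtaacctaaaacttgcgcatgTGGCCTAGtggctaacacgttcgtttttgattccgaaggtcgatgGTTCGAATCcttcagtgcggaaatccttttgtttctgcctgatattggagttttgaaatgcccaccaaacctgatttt
sri-10, chrV:18804748-18804898, plus strand: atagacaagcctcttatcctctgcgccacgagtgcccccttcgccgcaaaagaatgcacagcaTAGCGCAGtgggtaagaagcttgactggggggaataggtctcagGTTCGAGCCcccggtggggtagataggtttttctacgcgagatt

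A second set, the 4 highest such peaks on chromosomes II to V with GAGAGA or its reverse complement TCTCTC within 50 bp of the summit, followed by the peak in the gene of the tagged protein itself, has those letters in capitals.
gei-4, chrIII:349926-350026, plus strand: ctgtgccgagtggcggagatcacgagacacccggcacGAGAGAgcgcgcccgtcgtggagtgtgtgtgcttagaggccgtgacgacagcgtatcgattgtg
pqn-41, chrIII:1921375-1921475, plus strand: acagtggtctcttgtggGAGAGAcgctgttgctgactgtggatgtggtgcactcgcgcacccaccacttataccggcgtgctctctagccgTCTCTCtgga
daf-5, chrII:14040377-14040477, plus strand: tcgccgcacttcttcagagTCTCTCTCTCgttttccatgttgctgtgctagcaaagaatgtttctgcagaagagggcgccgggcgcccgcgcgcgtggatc
Y111B2A.12, chrIII:12612668-12612768, plus strand: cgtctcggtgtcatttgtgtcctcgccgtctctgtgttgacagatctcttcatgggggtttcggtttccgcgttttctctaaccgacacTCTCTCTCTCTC
F57A8.1, chrV:10040057-10040157, plus strand: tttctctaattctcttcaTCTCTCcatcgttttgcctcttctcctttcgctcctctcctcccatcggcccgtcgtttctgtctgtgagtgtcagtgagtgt

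Another set shows the 4 highest peaks on chromosomes II to V with ACGCAG or its reverse complement CTGCGT, in capitals.
epg-9, chrIV:2602102-2602202, plus strand: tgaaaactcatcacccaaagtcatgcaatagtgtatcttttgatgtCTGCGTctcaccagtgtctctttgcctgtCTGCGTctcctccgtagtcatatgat
larp-1, chrIII:5014014-5014114, plus strand: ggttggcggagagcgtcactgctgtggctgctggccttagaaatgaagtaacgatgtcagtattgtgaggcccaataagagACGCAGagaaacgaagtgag
srh-298, chrV:17819801-17819901, plus strand: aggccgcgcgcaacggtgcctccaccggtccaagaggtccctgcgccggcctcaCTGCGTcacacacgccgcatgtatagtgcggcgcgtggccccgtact
syd-1, chrII:7593432-7593532, plus strand: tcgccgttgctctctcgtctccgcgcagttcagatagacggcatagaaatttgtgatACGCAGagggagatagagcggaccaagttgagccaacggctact

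The last sequence shows a summit in a very short intron of hsp-90, with exon bases in capitals.
hsp-90, chrV:14687040-14687140, plus strand: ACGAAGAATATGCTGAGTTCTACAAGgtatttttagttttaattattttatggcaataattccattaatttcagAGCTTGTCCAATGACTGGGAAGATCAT

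The highest intron peak lay in ints-8, which encodes a homolog of an Integrator complex subunit, and its summit at chrI:13463991 was inside rpr-1, the RNase P RNA gene on the opposite strand. Its signal was 353 in the pooled list, 149 in replicate 1 and 205 in replicate 2, and it ranked 4 in the pooled list and in replicate 1 and 5 in replicate 2. No other member reached a signal of 150. Signal over all 305 had a median of 58.8 and quartiles of 55.2 and 65.1. The −log10 q of the authors had a median of 0.828 and quartiles of 0.692 and 1.14, and ran from 0.601 to 2.51. Most members were therefore weak calls by q, and strong refers to rank alone. Signal chose the members, so these values are given as a description.

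The next 3 members by signal were the lips-10, unc-104 and gei-4 peaks. The lips-10 summit, in the last intron of a lipase-related gene, had a signal of 143 in the pooled list, 55.8 in replicate 1 and 83.4 in replicate 2. The summit in unc-104, the kinesin that carries synaptic vesicle precursors, had 130, with 63.7 and 57.5 in the replicates. In the first intron of gei-4, whose product RefSeq describes as a bZIP domain protein, signal was 129, with 61.3 and 73.4. All 3 were in the upper 236 peaks of each replicate list, so they were high in both.

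The hsp-90 peak was higher in replicate 1 and the ppfr-1 peak in replicate 2. The hsp-90 summit, in the gene of the cytosolic chaperone, had a signal of 123, with 81.4 in replicate 1 and 45.2 in replicate 2. The ppfr-1 summit, in the gene of a regulatory subunit of protein phosphatase PP4, had 122, with 26.1 and 92.9. Its rank was 4455 in replicate 1 and 43 in replicate 2, the widest split among the 8 highest members. The srt-52 peak, in a chemoreceptor gene, had 117, with 65.7 and 58.3, and the pqn-41 peak, in a gene of a polyglutamine-repeat protein, had 116, with 37.2 and 79.0.

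In all, 20 members passed the authors' threshold on the irreproducible discovery rate, or 6.56%. Of all 30000 pooled peaks, 0.983% passed, and passing follows the pooled signal that the rule used, so nothing is read from the difference. The other 12 of these 20 lay in Y105C5A.15, let-526, C24H12.4, daf-5, T05A8.7, T25B9.9, pfas-1, glb-25, T28F4.1, hsp-1, Y43F8B.3 and Y71G12B.31, with signals of 86.8 to 102. Among them are an ARID domain gene (let-526), a Ski homolog of the dauer TGF-beta pathway (daf-5), a putative enzyme of purine synthesis (pfas-1), a globin (glb-25) and an HSP70 chaperone (hsp-1). The hsp-1 peak had a signal of 54.7 in replicate 1 and no summit within 100 bp in replicate 2. The 25 highest members were completed by sre-45, C33B4.4, M01H9.3, Y41D4A.1 and Y111B2A.12, with signals of 83.2 to 85.6, of which the C33B4.4 peak had no summit within 100 bp in replicate 1.

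At the other end, the last 2 members were in vab-10 (rank 2986, signal 52.8), a spectraplakin gene, and in dys-1 (rank 2987, 52.8), the dystrophin gene. The 2 nearest peaks outside were in kvs-5 (rank 3008, 52.7), a potassium channel gene, and in din-1 (rank 3011, 52.7). Values on both sides of the limit were nearly equal, so rank 3000 marks no gap in signal.

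**Figure D1:**
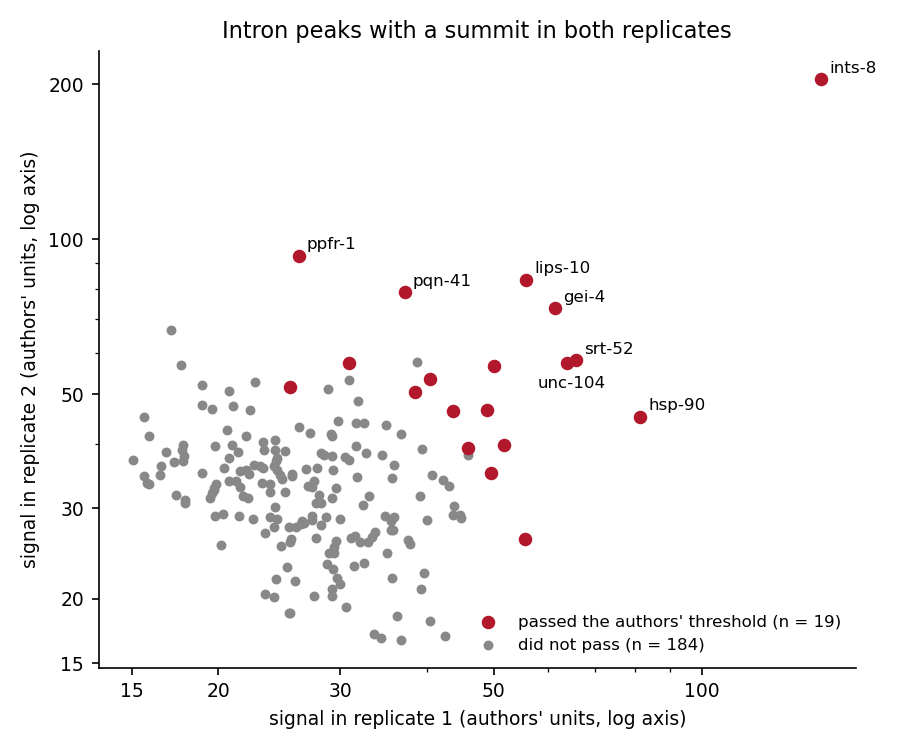
Signal of the 203 strong intron peaks that had a summit within 100 bp in both replicate lists, replicate 1 on the horizontal and replicate 2 on the vertical axis (authors' units, log axes), 1 point per peak, with red points for the 19 that passed the authors' threshold and grey points for the other 184. The ints-8 peak at the RNase P RNA gene stands alone at 149 and 205, and over the other 202 points Pearson's r was 0.14 and Spearman's rho −0.12.

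Both replicates were then searched for each member. A summit lay within 100 bp in replicate 1 for 251 members (82.3%, where 50.2% of all pooled peaks had one), in replicate 2 for 253 (83.0%, against 54.1%) and in both for 203. The share in both was 66.6% (95% Wilson interval 61.1 to 71.6), against 15.8% (14.7 to 17.0) of the lower intron peaks and 22.1% of all pooled peaks. Among the 3000 highest peaks of every location 72.4% had a summit in both lists, so the intron members were a little under their rank class. The promoter, coding-exon and intergenic classes stood at 71.5%, 71.3% and 71.1%. Wilson intervals here cover counting error only, and because the pooled list was called on the reads of both replicates, presence in them is not independent of the pooled rank.

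Within the intron members the share in both lists fell with rank. It was 95% for the 20 peaks ranked 1 to 295, 81.1% for 53 ranked 296 to 1000, 68.2% for 107 ranked 1001 to 2000 and 54.4% for 125 ranked 2001 to 3000. Only 43 members were among the 3000 highest peaks of each replicate, while 125 were so in replicate 1 and 144 in replicate 2. Over the 203 members in both lists, Pearson's r of the signals was 0.54 and Spearman's rho −0.11, and without the ints-8 peak r was 0.14. These points share the pooled list that chose them, which constrains the correlation. The widest splits were a peak in pha-4, the pharynx selector gene (rank 744 in replicate 1, 28386 in replicate 2), and a let-526 peak at chrI:5313314 (27491 and 1852). That let-526 summit lay less than 356 bp, the usual peak width, from a higher let-526 member at chrI:5313104. The latter had signals of 30.9 and 53.3 in the replicates, so these may not be separate sites.

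**Figure D2:**
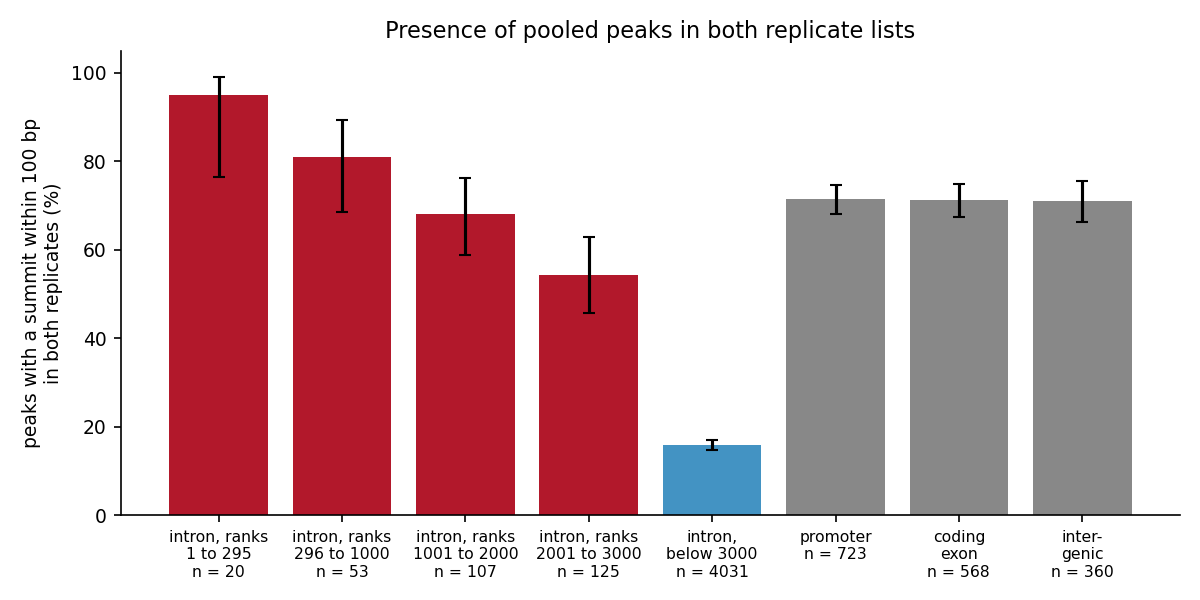
Share of pooled peaks with a summit within 100 bp in both replicate lists, by rank among the strong intron peaks (red), for the lower intron peaks (blue) and for autosomal peaks of other locations within ranks 1 to 3000 (grey). Error bars are 95% Wilson intervals of counting error. The share was 95% in the highest band and 54.4% in the lowest, against 15.8% below rank 3000.

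Few members had tRNA promoter letters. The A-box and B-box pair was found within 100 bp of 7 member summits, in lips-10, unc-104, srt-52, Y69A2AR.31, hum-7, F32B4.8 and sri-10, of which the first 3 passed the authors' threshold and the other 4 had pooled ranks of 986, 1640, 2263 and 2346. The 7 are 2.30% (1.12 to 4.66) of members, against 0.719% (0.501 to 1.03) of lower intron peaks, 0.656% of windows centred 400 bp to either side of members and 0.39% of 201-bp windows of the eligible intron sequence. In all 7 the first letters of the boxes were 44 or 45 bases apart. That spacing was read from the members themselves, so their share could not drop under it and the next shares are a description. At that spacing the pair was in 0.164% of the windows beside members, 0.298% of lower intron peaks and 0.202% of windows of the eligible intron sequence. The same letters were in 244 of 612 annotated tRNA genes (39.9%), 147 of them at 44 or 45 bases.

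Pseudogenic tRNAs, which the rule did not exclude, are annotated near 3 of these summits. The unc-104 and Y69A2AR.31 summits lay inside C52E12.T1 and Y69A2AR.T1, on the strand of the letters, while C54E10.T6 lay 41 bp from the sri-10 summit on the strand opposite its letters and did not hold them. No tRNA gene was annotated within 1000 bp of any of the 7, and no pseudogenic tRNA within 250 bp of the lips-10 and srt-52 summits. The signals of the remaining 4 were 66.0 in Y69A2AR.31 (31.6 and 39.6 in the replicates), 59.5 in hum-7 (19.4 and 31.5), 55.8 in F32B4.8 (39.7 and 22.5) and 55.4 in sri-10 (29.2 and 20.9). All 7 had a summit in both replicate lists. The letter pair was chosen after the sequences had been seen, and a match describes letters, not a promoter.

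Other RNA genes and pseudogenes stood near more of the members. An annotated ncRNA, lincRNA, antisense RNA, piRNA or pseudogene lay within 250 bp of 50 summits (16.4%, 12.7 to 21.0), against 9.01% (8.16 to 9.93) of the lower intron peaks and 8.15% of the eligible intron bases. The summit was inside such a gene for 27 members (8.85%, 6.16 to 12.6), against 3.20% (2.70 to 3.79) of lower intron peaks. Among other autosomal peaks of the same ranks, the share within 250 bp was 29.4% between genes, 9.82% at promoters and 2.64% in coding exons. With the summit inside it was 18.1%, 4.43% and 0.88%, so intergenic peaks exceeded the members in both. Genes of the ncRNA class were near 39 members (12.8%, against 6.72% of lower intron peaks) and antisense RNAs near 4 (1.31%, against 0.198%). Pseudogenes were near 5 (1.64%, against 0.769%) and lincRNAs near 2 (0.656%, against 0.0992%). For piRNAs, near 2 members, the share went the other way (0.656%, against 1.27%). Of 65 pairs of a summit and a neighbouring gene, in which a gene near more than 1 summit counts each time, 45 had the gene on the strand opposite the host and 20 on its strand. No background was set beside these strand counts, so no preference is read from them.

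Named cases cover each class. Besides rpr-1, the ppfr-1 summit lay inside F16A11.7, annotated as ncRNA on both strands, and inside the antisense RNA anr-20. The let-526 summit at chrI:5316446 lay inside the antisense RNA F48C1.15 and had a signal of 100 (43.6 and 46.3 in the replicates). In T28F4.1, a gene with a SERTA domain, the summit lay inside the ncRNA T28F4.7, with a signal of 91.2 (55.4 and 26.2). The lincRNA linc-90 held a gei-4 summit (62.7, with 20.3 and 29.3) and linc-92 one in nhr-142 (58.0, with 19.8 and 33.4), while the piRNA gene 21ur-14766 lay 164 bp from a summit in Y46D2A.1 (61.7). What these genes transcribe was not measured.

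The locus of the tagged protein held 2 members. The one in its first intron, at chrV:10040107, ranked 496 with a signal of 75.7, and 34.9 and 43.6 in the replicates. The other, in its last intron at chrV:10047650, ranked 906 with 66.9, and had 43.1 in replicate 1 and no summit within 100 bp in replicate 2. The gene, chrV:10037340-10048726, held 9 pooled peaks in 11.4 kb, or 0.79 per kb against 0.299 per kb over the genome, with 10 in replicate 1 and 8 in replicate 2. The unc-119 gene, also present in the transgene, held 0 peaks in 6.30 kb in each of the 3 lists. At 0.299 per kb few peaks would fall in a gene of that length, so little is read from this count. How many copies of the transgene the strain carries was not measured, and its part in the peaks at F57A8.1 was not tested.

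Intron length split the members. The median host intron was 1019 bp for members and 735 bp for lower intron peaks, and the median eligible base lay in an intron of 1020 bp. Introns over 1000 bp held 153 members (50.2%, 44.6 to 55.7), against 40.9% (39.4 to 42.5) of lower intron peaks and 50.9% of the eligible bases. The share in long introns was above that of weaker peaks, but among peaks with no exon base it was 77.8% (71.1 to 83.3) of members and 78.0% (76.1 to 79.8) of lower peaks. Introns of up to 2000 bp held 62.6% of members, 72.7% of lower peaks and 70.6% of the bases, so the nearness to the sequence at 1000 bp did not hold at that length. Introns of up to 10000 bp held 92.5% of members, 95.9% of lower peaks and 96.8% of the bases, the rest lying in longer ones. First introns held 17.4% of members (13.5 to 22.0), 14.3% of lower peaks and 15.5% of bases, which differ by less than the counting error.

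Many member peaks also reach exons. The usual peak was 356 bp wide, and 129 member peaks (42.3%) held at least 1 exon base, against 53.8% of lower intron peaks. Introns of 356 bp or less held 71 members (23.3%), and introns of 100 bp or less held 34 (11.1%, 8.09 to 15.2), against 15.8% of lower peaks and 7.64% of the bases. In introns of 100 bp or less most of the peak covers exons, with 195 to 314 exon bases. The peak at the 48-bp intron of hsp-90, shown above, held 308. The 34 included the 54-bp intron of hsp-1, the 73-bp intron of the tyrosine phosphatase gene Y71G12B.31 (86.8, with 30.9 and 57.4) and the 48-bp intron of pgl-1, a P-granule gene (68.5, with 37.1 in replicate 1 and no match in replicate 2). With a fragment size of 200 to 800 bp, per the labels, binding to such an intron and to the exons beside it cannot be told apart.

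**Figure D3:**
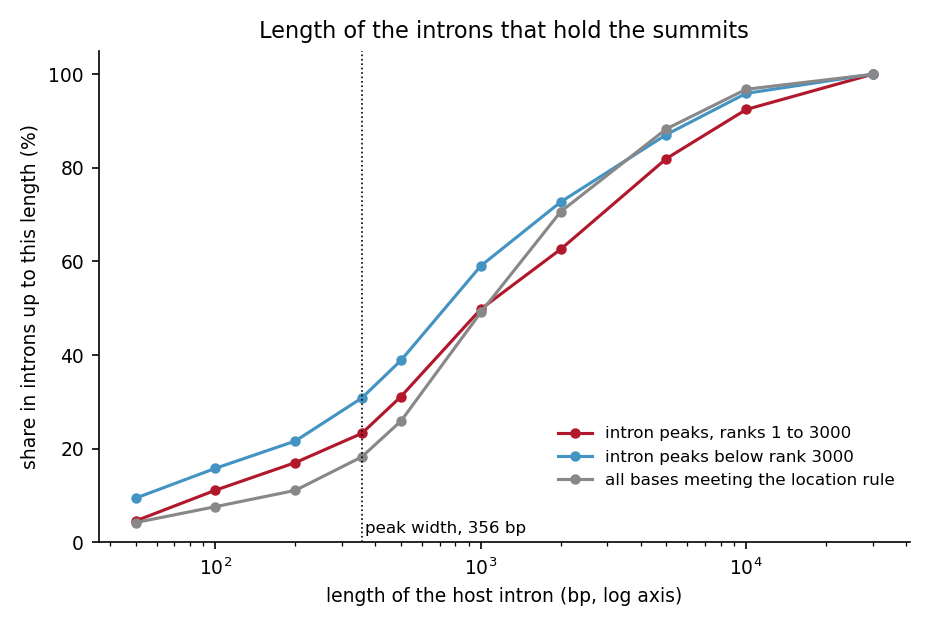
Cumulative share of summits, or of bases, in introns up to a given length (log axis), for the strong intron peaks (red), the lower intron peaks (blue) and all bases that meet the location rule (grey). The red curve runs below the blue one at every length drawn under 30000 bp and crosses the grey one near 1000 bp.

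G and C content peaked at the summits of members. Windows of 101 bp centred on member summits averaged 46.4% G and C (SD 9.74, n = 305), and windows 400 bp to either side averaged 38.4%, a difference of 8.02 percentage points (SD 11.5). For lower intron peaks the same windows averaged 39.8% and 37.2%, a difference of 2.56 (SD 9.70, n = 4031), and windows of the eligible intron sequence averaged 33.0%. The summit was richer than its sides in 226 members (74.1%, 68.9 to 78.7), against 57.7% of lower peaks. By rank the difference was 10.9 points for the thresholded peaks, 12.6 for ranks 296 to 1000, 8.46 for 1001 to 2000 and 5.25 for 2001 to 3000.

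That difference was carried by long introns. It was 10.3 points (SD 10.9, n = 234) in introns over 356 bp and 0.586 (SD 10.3, n = 71) in shorter ones, where the summit sits in AT-rich intron bases between exons. In the 176 member peaks with no exon base it was 11.8 points (SD 11.2), against 4.85 (SD 9.62, n = 1864) in lower intron peaks with no exon base. Over the other classes of high peaks it was 7.90 points at promoters, 9.23 in coding exons and 11.4 between genes, so a GC-rich summit was shared by all of them. Base composition can affect how many fragments are recovered, and its part in the signal was not tested.

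**Figure D4:**
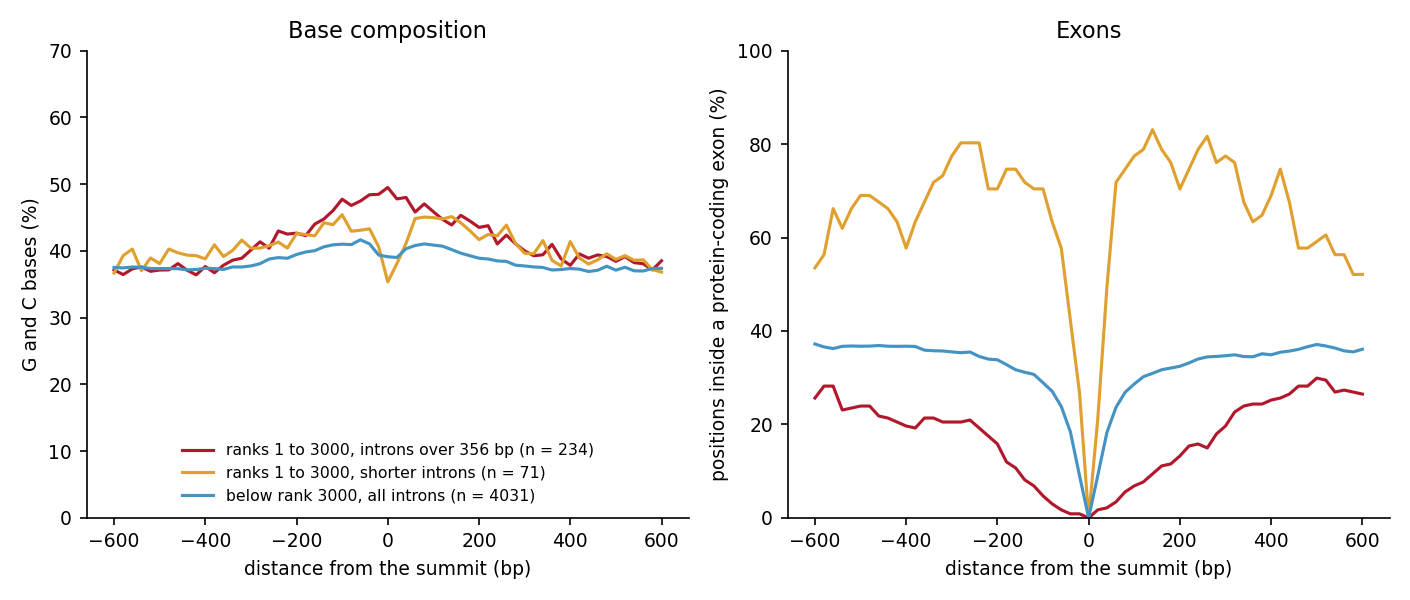
G and C content in 20-bp steps (left) and share of positions inside a protein-coding exon (right) by distance from the summit, for strong intron peaks in introns over 356 bp (red), in shorter introns (orange) and for all lower intron peaks (blue). In long introns G and C content was 49.5% at the summit and 37.7% at 400 bp upstream in genome coordinates, while in short introns it dipped to 35.4% at the summit, with exons covering over 70% of positions 100 bp away.

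Soft-masked repeats and A tracts were less frequent at member summits than in the eligible intron sequence. The genome sequence was soft-masked over more than 50% of the window in 39 members (12.8%, 9.5 to 17.0), against 20.8% of lower intron peaks and 51.8% of windows of the eligible intron sequence. Ranked by replicate 2 alone the share was 18.2% (14.3 to 22.8), an interval that holds the value of the lower peaks, and with a rank limit of 1500 it was 7.83% (4.17 to 14.2). AAAAAA was in 18.4% of member windows (14.4 to 23.1), 36.2% of windows beside them, 29.3% of lower intron peaks and 53.8% of eligible windows. In introns of 356 bp or less it was in 26.8% of member windows and 27.5% of windows beside them, and in longer introns in 15.8% and 38.9%. Intergenic, promoter and coding-exon peaks of the same ranks were soft-masked over more than 50% of the window in 10.3%, 7.61% and 0.88%. AAAAAA was in 19.2%, 17.6% and 5.11% of their windows, so low shares were not particular to intron members. How reads from repeats were treated is not stated in the labels, and its part in these shares was not tested.

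GAGAGA, the alternating purine run marked in the set led by gei-4, was the 6-letter sequence with the largest excess at member summits over the windows beside them among 2080. It was within 50 bp of 56 members (18.4%, 14.4 to 23.1), in 5.57% of the windows beside them, in 6.85% (6.11 to 7.67) of lower intron peaks and in 4.11% of eligible windows. It was in 22.6% of members in introns over 356 bp and in 4.23% of those in shorter introns, and in 26.1% of member peaks with no exon base, against 10.2% of lower peaks with none. The highest with it were the ints-8, gei-4, pqn-41, daf-5 and T28F4.1 peaks. Intergenic peaks of the same ranks held it in 16.9%, promoters in 11.5% and coding exons in 4.75%. Of the 56, 31 (55.4%) had a summit in both replicate lists, against 69.1% of members without the letters.

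ACGCAG, marked in the set led by epg-9, was within 50 bp of 22 members (7.21%, 4.81 to 10.7), in 1.48% of windows beside them, 2.85% (2.38 to 3.41) of lower intron peaks and 1.76% of eligible windows. It was in 7.22% of intergenic peaks of the same ranks, 6.64% of promoter peaks and 3.17% of coding-exon peaks, so high intergenic and promoter peaks shared it. None of the 20 thresholded members had it, which allows a share of up to 15% at 3 counts. The 5 highest were in epg-9, an autophagy gene (77.7, with 17.1 and 66.7), larp-1, a La-related RNA-binding protein (74.1, with 43.8 and 30.3), srh-298, a chemoreceptor (70.7, with 18.9 and 52), syd-1, a synapse assembly gene (70.3, with 32.4 and 43.9), and daf-5 (69.6, with 40 and 28.5). Of the 22, 8 also had GAGAGA and 5 had AGAGCG. The letters AGAGCG were in 4.92% of members, 2.30% of windows beside them and 1.42% of eligible windows. Promoter, intergenic and coding-exon peaks of the same ranks held them in 5.95%, 3.61% and 1.94%.

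Of 11 motifs searched, the others gave these shares. TGGCNNAGT, longer A-box letters, was in 3.93% of members (2.26 to 6.75), 0.656% of windows beside them, 1.44% of lower peaks and 1.14% of eligible windows. Intergenic peaks of the same ranks held it in 3.06% (1.71 to 5.39), promoter peaks in 1.52% and coding-exon peaks in 1.23%. GTTCGANNC and GGTTCGA, B-box letters that overlap each other in 6 members, were in 2.30% and 1.97% of members, 1.15% and 0.656% of windows beside them, 1.19% and 1.09% of lower peaks, and 0.618% and 0.654% of eligible windows. Coding-exon, intergenic and promoter peaks of the same ranks held GTTCGANNC in 1.76%, 1.67% and 0.83%, and GGTTCGA in 0.88%, 0.833% and 0.968%. GAACCC was in 3.93% of members, 2.13% of windows beside them, 3.15% of lower peaks and 1.73% of eligible windows, and CTGTTTCA in 0.656%, 0.492%, 0.447% and 1.03%. CACGTG, the E-box palindrome, was in 4.26% of members (2.51 to 7.15), 2.79% of windows beside them, 2.03% of lower peaks and 1.39% of eligible windows. Coding-exon, intergenic and promoter peaks of the same ranks held it in 3.52%, 2.5% and 2.35%. TGATAA, letters of GATA factor sites, was in 4.26% of members (2.51 to 7.15), 9.84% of windows beside them, 7.17% of lower peaks and 8.31% of eligible windows. All motifs were searched on both strands, and no match says only that these letters are not in the window. Since member windows hold more G and C, letters rich in G and C can be more frequent for that reason alone, and this was not tested.

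**Figure D5:**
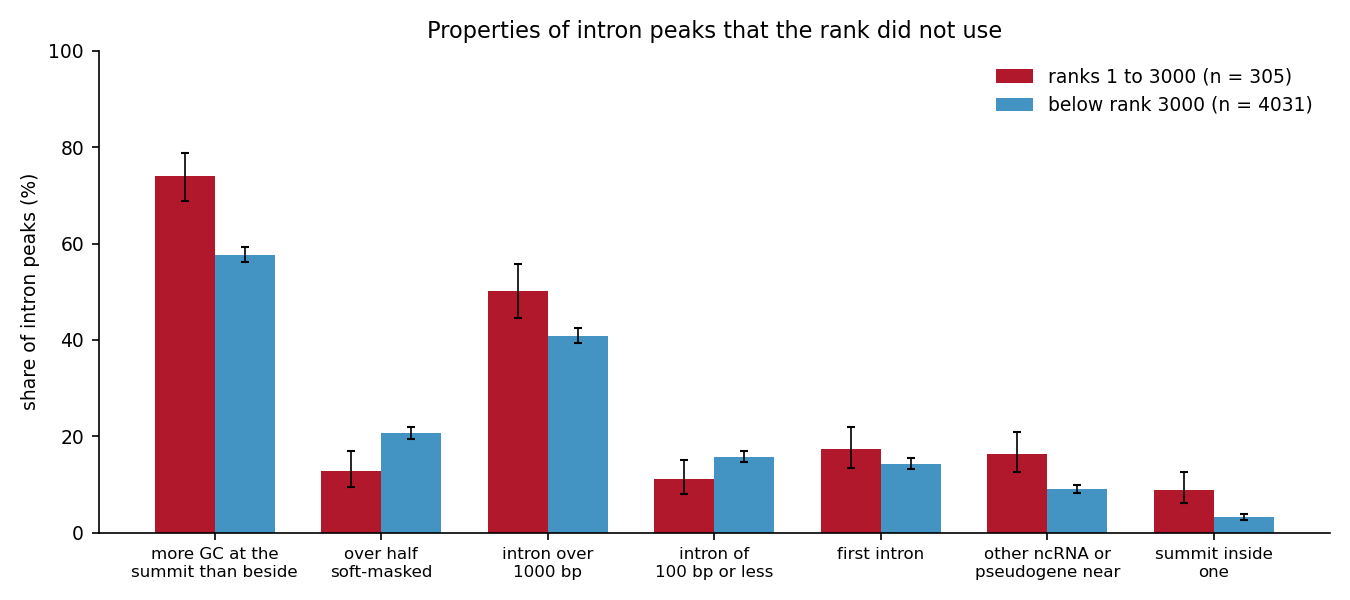
Share of strong intron peaks (red, n = 305) and of lower intron peaks (blue, n = 4031) with properties that the signal rank did not use, with 95% Wilson intervals of counting error. Members had a GC-rich summit more often (74.1%, against 57.7%) and lay more often inside another RNA gene or pseudogene (8.85%, against 3.20%), and were soft-masked less often (12.8%, against 20.8%).

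The 305 members lay in 268 host genes, of which 81 are named only by a sequence identifier. Chromosome II held 76, or 21.0 per Mb of eligible intron sequence, and chromosome IV held 44, or 9.96 per Mb, with I at 12.3, III at 13.6 and V at 14.6. The lower intron peaks were densest on V (238 per Mb) and II (228 per Mb) and sparsest on IV (152 per Mb). The median distance to the nearest other member was 65.5 kb, while 52 members (17.0%) had another within 5000 bp and 79 (25.9%) within 10000 bp. These distances were not compared with a background.

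A few genes held several. In all, 64 members (21.0%) shared their host with another, over 27 genes. The host ppfr-1 held 5, let-526, daf-5 and zfp-1 held 4 each, and lit-1, the Nemo-like kinase of the Wnt pathway, held 3. These are large genes: hosts of 2 or more members had a median of 8.37 kb of eligible sequence, hosts of 1 member 2.76 kb and all 14324 genes with any 0.591 kb. The 4 daf-5 summits had signals of 94.8, 69.6, 56.5 and 54.9, the first 2 and the last in its 14446-bp first intron, and 3 of them had a summit in both replicates. The 4 in zfp-1, a chromatin factor gene, had 61.9, 58.7, 57.2 and 56.0, and only the second had a summit in both. In ppfr-1, signals below that of the top peak ran from 57.1 to 62.5.

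Hosts were grouped by words in their RefSeq product names or, for receptor families, by gene name. The lists therefore miss genes whose product name lacks the word, and the members in unc-104, larp-1, syd-1, pgl-1 and kvs-5 fall in none of the synaptic, RNA-binding, P-granule or channel lists below. Kinases and phosphatases held 36 members in 25 genes (11.8%, 8.65 to 15.9), against 8.86% of lower intron peaks and 7.07% of the eligible bases. Examples beside ppfr-1 and Y71G12B.31 were the putative glycerol kinase R11F4.1 (79.0, with 36.7 and 41.8) and the phosphoinositide phosphatase mtm-3 (72.0, with 30 and 28.5). Zinc finger, bZIP, fork-head and other DNA-binding proteins outside the homeobox and nuclear receptor families held 23 members in 15 genes (7.54%, 5.08 to 11.1), against 4.24% of lower peaks and 3.45% of bases, and gei-4, Y105C5A.15 and let-526 led them. Chaperone genes held 6 (1.97%, 0.905 to 4.22), against 0.298% of lower peaks and 0.438% of bases. They included hsp-60, the mitochondrial chaperonin (61.3, with 29.4 and 25.2), and dnj-5 (60.0, with 42.2 and 34.0). The hsp-90, hsp-1 and dnj-5 summits lay in introns of 48, 54 and 96 bp, and their peaks held 308, 302 and 220 exon bases.

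Other lists held fewer members. Chemoreceptors held 14 members (4.59%), against 3.97% of lower peaks and 3.40% of bases, with srt-52 and sre-45 (85.6, with 49.5 and 35.0) the highest. Nuclear hormone receptors held 6 (1.97%, against 1.49% and 1.21%), among them nhr-88 (62.6, with no match in replicate 1 and 56.4 in replicate 2). Muscle and actin cytoskeleton genes held 8 (2.62%, against 1.89% and 1.44%), with F28E10.1 (64.4) and vab-10 (60.3) among them. Products named for splicing or RNA binding held 4 (1.31%, against 0.893% and 1.48%), with C24H12.4 (96.7) and pno-1 (78.5, with no match in replicate 1) the highest. Products with argonaute, Piwi, PAZ or P-granule words held 3, in ppw-2, ergo-1 and csr-1, with signals of 55 to 63.1. Their share was 0.984% (0.335 to 2.85), against 0.124% of lower peaks and 0.106% of bases, and only the ergo-1 summit had a match in both replicates. The ppw-2 and csr-1 summits lay in introns of 46 and 50 bp. Their peaks held 310 and 306 exon bases, so binding to intron and exon cannot be told apart there.

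Products named as channels held 5 (1.64%, against 1.81% and 2.17%), led by the potassium channel twk-36 (66.3, with 26.8 and 35.7), and adhesion and matrix proteins held 5 (1.64%, against 2.65% and 2.18%), among them unc-52, the perlecan gene (59.9, with 28.7 and 23.4). Homeobox genes held 1, vab-7 (65.0), which is 0.328% against 1.34% of lower peaks and 0.793% of bases. Collagens held 1, col-71 (63.4), which is 0.328% against 0.124% of lower peaks and 0.224% of bases. Products with synaptic or vesicle words held 1, the neurexin-like itx-1 (57.6), which is 0.328% against 0.372% and 0.405%. Ribosomal protein and translation factor genes held 0, which allows a share of up to 0.984% at 3 counts, while they offer 0.0828% and 0.443% of the bases. Members in 1 gene are not independent, no group was tested for enrichment, and none is called particular to these peaks.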

How the data were processed

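The report rests on 4 peak lists that the authors deposited from ChIP-seq of 2 biological replicates. Per the deposited file descriptions, peaks were called against a control on each replicate and on both pooled (30000 peaks each), and the fourth list keeps the 295 peaks under the authors' limit on irreproducible discovery rate. The sources used here name no caller, aligner, filter, scaling, control or read depth. The signal of each peak is the authors' deposited enrichment value and was used to rank and describe peaks. Values of −log10 q, also deposited, serve here as a description. Both depend on depth.

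Gene models came from Ensembl release 115 (WBcel235, the ce11 sequence), and product names, pseudogenic tRNAs and sequence from RefSeq of the same assembly. Coordinates are 1-based. The 5′ ends were those of every protein-coding transcript and gene. A host is the gene with the shortest intron, over merged exons, at the summit. A replicate match is a summit within 100 bp. Shares carry 95% Wilson intervals, which cover counting error only, and no test was made, since there is 1 group. Locations were checked against an independent lookup and motif searches were tested on simulated data. Python 3.11.15, numpy 2.4.6, pandas 2.3.3 and scipy 1.17.1 were used.

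The members, motifs and gene lists were chosen with earlier results of these data known. Lists based on words in RefSeq product names replaced a version written by gene name with the host names in view, which was dropped. Named hosts are F57A8.1, unc-119, those of the 25 highest and of thresholded members, those with most members, up to 4 per list, 3 per neighbour class and 5 per motif, by signal, and those at the rank limit; others, and the tRNA letter pair, were chosen after their values were seen. Alternatives were rank limits of 1500 and 6000, wider distances, RefSeq models, each replicate's own list, other match and window sizes, and subsets of members.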

Additional observations from a re-analysis of the deposited data

How the results depend on the processing

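With a rank limit of 1500 the rule gave 115 members, 77.4% in both replicate lists, 59.1% in introns over 1000 bp, 23.5% in first introns, 15.7% sharing a host and a GC difference of 10.6 points. With a limit of 6000 it gave 712 members, 57.7% in both lists, 30.5% sharing a host, 12.2% with GAGAGA and a GC difference of 6.04. The authors' threshold left 20 members. When each replicate's own list was ranked in place of the pooled list, the rule gave 319 to 338 members, with 36.1% to 37.3% also in the other list, 44.4% to 54.2% in introns over 1000 bp, 12.4% to 16.3% near another ncRNA or pseudogene, 13.9% to 14.1% with GAGAGA and a GC difference of 5.78 to 6.28. The cause of these shifts was not tested.

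The share in both lists was 38.7% with summits matched within 50 bp, 86.2% within 200 bp and 14.1% against the 3000 highest of each replicate. ACGCAG was in 3.28% of windows of 25 bp either side. Among members with no exon base in the peak, chosen after seeing the data like the next 2 subsets, 77.8% were in introns over 1000 bp, 25.6% in first introns, 23.3% near another ncRNA or pseudogene, 30.1% shared a host within the subset, 26.1% had GAGAGA and the GC difference was 11.8. Counting hosts only within the subset, 16.5% shared a host away from other ncRNA genes and pseudogenes and 13.8% among members in both lists, which lowers the share by construction. Counting all members as partners, these were 19.2% and 20.2%. The GC difference among members in both lists was 9.37. The short RNA distance, the 5′ end distance, RefSeq models and gene 5′ ends alone (363 members, chosen after seeing the data) left each of these results within its interval, or its count within 1.5 times, and no setting tried reversed the GC difference. No paired analysis was possible because both replicates belong to 1 group. Read depth is unknown, so absence of a summit from a replicate list is not absence of binding.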

Other observations

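The 6-letter sequences with the next largest excess at member summits over the windows beside them were AGAGAG (15.7% of members, 5.57% of windows beside), CGCCGC (8.52% and 1.48%) and CTCTCC (11.1% and 4.26%). AGCCTA was in 8.20% of member windows, in 2.30% of windows beside them and in 6.57% of lower intron peaks, against 3.17% of windows of the eligible intron sequence, so it was near as frequent at weak intron peaks as at strong ones. The largest deficit was for AAAAAT, in 20.7% of member windows and 40.8% of windows beside them. Of all 2080 sequences, 1031 were more frequent at member summits and 975 less frequent.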
